A study of Mus musculus with 4 samples.

Results

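Brown adipose tissue handles reactive oxygen with 3 linked enzyme systems, and the genes described here encode them. They are the glutathione, thioredoxin and superoxide defence genes, chosen by name from the deposited table: the glutathione transferases (Gst and Mgst), glutathione peroxidases (Gpx), peroxiredoxins (Prdx), superoxide dismutases (Sod1, Sod2, Sod3), thioredoxins and their relatives (all symbols that start with Txn), glutaredoxins (Glrx), and Gclc, Gclm, Gss, Gsr, Nqo1, Srxn1, Nfe2l2 and Keap1. This gave 61 of the 12165 genes listed, and the rule uses gene names alone, not measured values. The tissue came from mice that lacked Ebf2 (Ebf2 KO, 2 libraries) and from wild-type mice (WT, 2 libraries). All were adults aged 8 weeks on a mixed strain background, fed chow at room temperature, and no other allele or treatment is named. EBF2 is a transcription factor of brown fat cells and their precursors. The sources used here do not say whether Ebf2 was deleted in all tissues, or whether a library held 1 animal or several, and p-values here measure only the spread between these libraries.

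Superoxide leaks from the respiratory chain and is turned into hydrogen peroxide by superoxide dismutases, of which Sod1 lies mainly in the cytosol, Sod2 in the mitochondrial matrix and Sod3 outside the cell. Peroxiredoxins and glutathione peroxidases then reduce the peroxide. Peroxiredoxins are recharged by thioredoxin and thioredoxin reductase, glutathione peroxidases by glutathione and glutathione reductase, and each chain draws its electrons from NADPH. Mitochondria keep a set of their own, with Sod2, Prdx3, Txn2 and Txnrd2. Glutathione transferases join glutathione to reactive lipids and foreign compounds, and many of these genes can be switched on by the transcription factor NRF2 (Nfe2l2), which KEAP1 marks for degradation.

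The unit is RPKM, which divides the reads of a gene by its length and by the depth of the library. The library totals recovered from these values were 176568920 and 162782640 reads in the Ebf2 KO libraries and 199678916 and 176574890 reads in the WT libraries. Ebf2 itself was at 0.391 and 0.352 RPKM in the Ebf2 KO libraries and at 2.97 and 2.63 RPKM in the WT libraries, so it was lower in the libraries labelled as lacking it. The X-linked RNA Xist, at 5.49 and 0.0353 RPKM in the Ebf2 KO libraries and at 5.05 and 6.19 RPKM in the WT libraries, set Ebf2 KO replicate 2 apart. The labels give no sex, and whether the libraries differ in sex was not tested. Most listed genes had a higher RPKM in Ebf2 KO, with a median log2 change of 0.45 over all genes. Each change below is therefore given on RPKM and again after median-ratio scaling, in which each library is divided by its median ratio to the others, taken over the 10365 genes that average 1 RPKM or more. Scaling divides the Ebf2 KO values by 1.55 relative to WT. The test was limma on log2(value + 1), with adjusted p under 0.05 over all 12165 genes, and folds on this scale are too small for genes of about 1 RPKM or less.

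On RPKM, 22 of the 61 genes rose (36.1%) and 6 fell (9.84%) in Ebf2 KO, against 24.4% of all genes higher and 3.54% lower, or 28% in either direction. After scaling 8 rose (13.1%) and 7 fell (11.5%), against 8.29% and 7.39% of all genes, or 15.7% in either direction. At an FDR under 0.05 in the authors' deposited table, 11 members passed as higher and 9 as lower, against 10.9% and 10.5% of all genes, or 21.4% in either direction. The libraries of the genotypes did not overlap in 41 members that were higher and 8 that were lower in Ebf2 KO on RPKM, against 65.4% and 9.3% of all genes, and in 20 and 19 after scaling, against 33.1% and 29.3%. The median log2 change of the 61 was 0.48 on RPKM and -0.00037 after scaling, beside 0.45 and 0.022 over all genes, so the medians nearly coincided. Single members moved both ways. The 8 genes that rose under both scalings were the glutathione transferases Gstz1, Gsta3, Gstm1, Gstm2 and Gstt1, the microsomal transferases Mgst2 and Mgst3, and the thioredoxin-domain gene Txndc5. The 6 that fell under both were the mitochondrial Sod2, Prdx3, Txn2 and Txnrd2, glutathione synthetase (Gss) and the transferase Gsta4. All 14 passed with the same sign in the deposited edgeR results of the authors and with limma-voom on recovered reads. The deposited edgeR results also held Gstm7, Mgst1 and Txndc15 as higher (FDR 0.0232, 0.0382 and 0.0446). They held Srxn1, Nfe2l2 and Gsto2 as lower (FDR 0.000514, 0.0265 and 0.0439). Split by place, the 13 members found wholly or in part in mitochondria held 5 that rose and 4 that fell on RPKM, and 1 and 4 after scaling (median log2 change -0.48). Among these 13, Gstz1 rose under both scalings, and Mgst1, Gpx1, Gsr and Gstk1 rose on RPKM only. The other 48 held 17 and 2 on RPKM, and 7 and 3 after scaling (median 0.041). Single libraries moved the counts. Without Ebf2 KO replicate 2, a total of 12 genes passed as higher and 2 as lower when RPKM was used, with 5 and 4 once scaled. Without Ebf2 KO replicate 1 there were 3 lower on RPKM and 4 higher after scaling, and without WT replicate 1 there were 4 lower after scaling. Of the 14 genes that rose on RPKM only, 8 (Gpx1, Gpx8, Gstk1, Gstm7, Gstp1, Mgst1, Sod1 and Txn1) lost their call on RPKM without Ebf2 KO replicate 1, and 10 (Gpx1, Gpx7, Gsr, Gstk1, Gstm5, Gstp1, Sod1, Txn1, Txndc16 and Txndc17) without Ebf2 KO replicate 2. Txndc16 also lost it without WT replicate 1, and Gstk1 without WT replicate 2. Some fits with 1 library left out also added calls. Without Ebf2 KO replicate 2, Nfe2l2 passed as lower and Gstm7 as higher after scaling. Without Ebf2 KO replicate 1, Gpx3 passed as lower under both scalings, Gstt2 as lower after scaling and Prdx4 as higher on RPKM. Without WT replicate 1, Prdx4 and Txnip passed as higher on RPKM. Without WT replicate 2, Prdx4, Keap1, Glrx, Gstt3, Txndc11 and Txnl4b passed as higher on RPKM. In that fit Gpx3 passed as lower on RPKM, and Gsto2 as lower after scaling. Below, a gene without a call is one that did not pass in the fits on all 4 libraries.

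**Figure D1:**
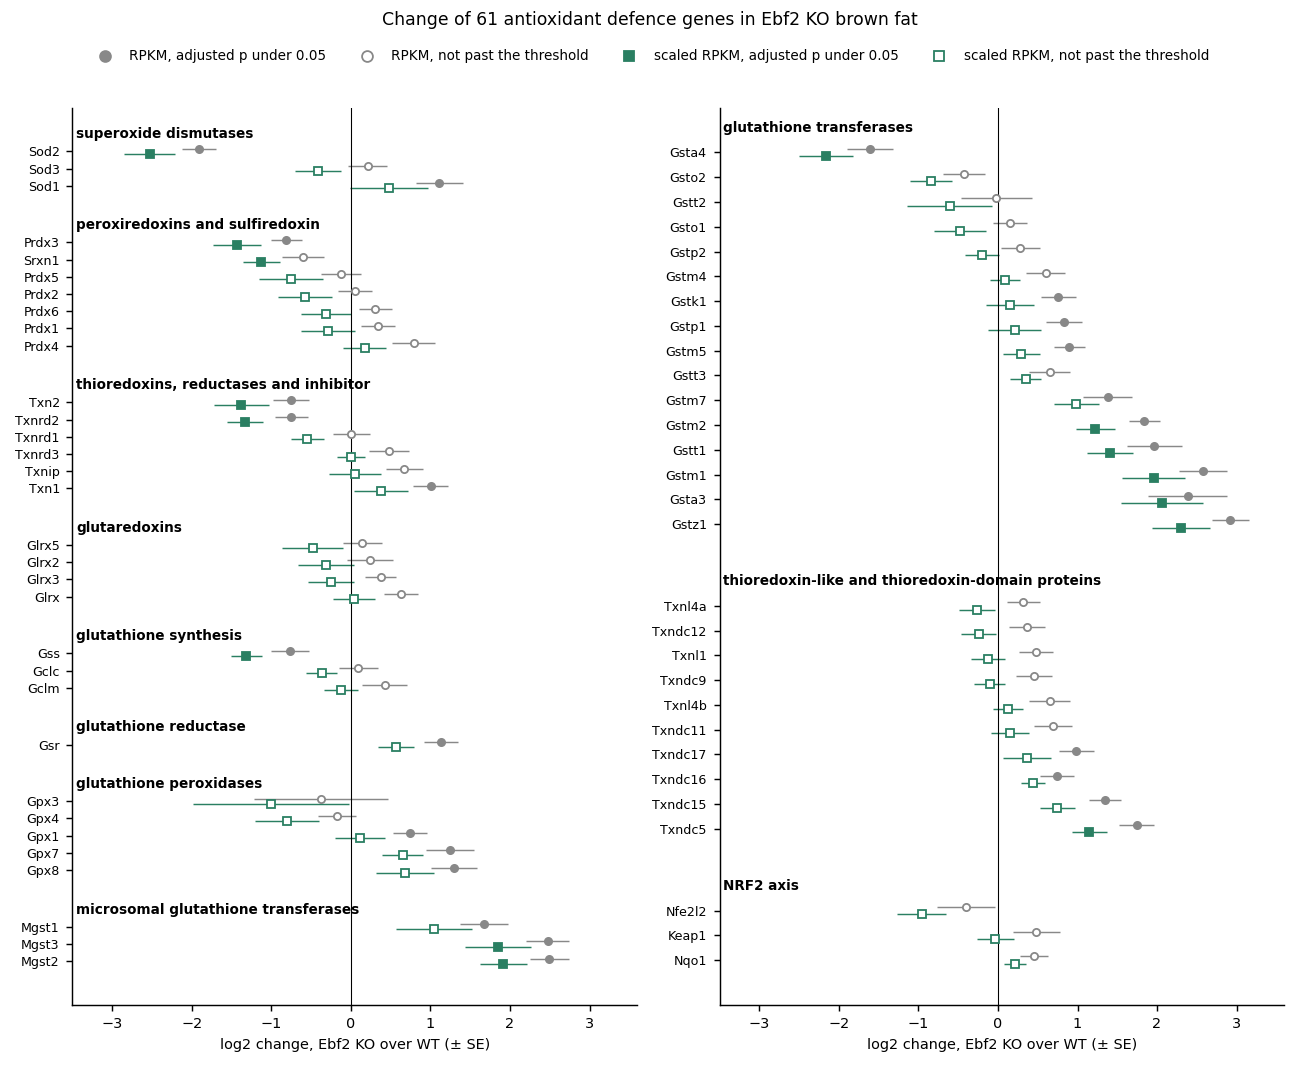
Log2 change of each of the 61 genes in Ebf2 KO over WT with its SE, grouped by role, on log2(RPKM + 1) (grey circles) and after median-ratio scaling (green squares); filled symbols passed an adjusted p under 0.05 by limma. Scaling moves the points to the left, and less so for genes of low RPKM such as Nqo1 (0.45 on RPKM and 0.21 after scaling). Sod2 (-2.53 after scaling) and Gstz1 (2.30 after scaling) stand at the ends.

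The promoter windows of 4 members show what sequence stands at the genes that moved most and at those that hold a match to the NRF2 element. Sequences are from RefSeq (GRCm38.p6), run from 250 bases before to 50 after the annotated start on the strand of the gene, and are shown for Sod2 (chr17:13007589-13007888, plus strand), which fell most, for the upstream start of Gstz1 (chr12:87146915-87147214, plus strand), which rose most on the log2 scale used here, and for Gsta3 (chr1:21240335-21240634, plus strand) and Srxn1 (chr2:152105274-152105573, plus strand). Capitals mark matches to the core of the antioxidant response element, the site bound by NRF2, searched on both strands as TGACNNNGC or TGAGNNNGC.
Sod2: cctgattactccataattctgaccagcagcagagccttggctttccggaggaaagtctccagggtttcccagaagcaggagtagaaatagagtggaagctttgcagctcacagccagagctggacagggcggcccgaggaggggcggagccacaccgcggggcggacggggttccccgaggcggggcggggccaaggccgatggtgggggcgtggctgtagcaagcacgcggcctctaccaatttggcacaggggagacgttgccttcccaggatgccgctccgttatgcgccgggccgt
Gstz1: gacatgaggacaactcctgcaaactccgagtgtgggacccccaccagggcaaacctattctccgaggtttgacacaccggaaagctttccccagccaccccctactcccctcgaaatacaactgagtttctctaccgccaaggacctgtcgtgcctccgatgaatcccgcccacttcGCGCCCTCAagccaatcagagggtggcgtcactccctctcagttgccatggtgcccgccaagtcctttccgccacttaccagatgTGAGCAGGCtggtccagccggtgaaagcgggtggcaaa
Gsta3: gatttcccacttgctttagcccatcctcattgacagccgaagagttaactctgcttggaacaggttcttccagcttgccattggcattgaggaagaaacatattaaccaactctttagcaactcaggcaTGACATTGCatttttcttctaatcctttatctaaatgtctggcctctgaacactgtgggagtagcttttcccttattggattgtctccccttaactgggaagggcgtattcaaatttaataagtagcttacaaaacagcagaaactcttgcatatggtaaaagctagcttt
Srxn1: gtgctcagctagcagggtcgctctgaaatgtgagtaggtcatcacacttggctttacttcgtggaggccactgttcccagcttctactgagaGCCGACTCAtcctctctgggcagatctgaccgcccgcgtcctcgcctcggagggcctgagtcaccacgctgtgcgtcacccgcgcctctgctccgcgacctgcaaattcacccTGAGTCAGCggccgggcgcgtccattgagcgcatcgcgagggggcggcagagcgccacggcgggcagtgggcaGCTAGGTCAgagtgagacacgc
The Sod2 window holds no match, the Gstz1 window holds 2, the Gsta3 window 1 and the Srxn1 window 3. Of the 61 genes, 53 were found in the promoter table by symbol, and 19 of these (35.8%) had a match in at least 1 window, beside 35.8% of the listed genes found there, so a match was no more frequent among them. The genes with a match moved both ways, from Txn2 and Srxn1, which were lower after scaling, to Gstz1, Gsta3, Gstt1 and Txndc5, which were higher. The EBF core CCCNNGGG, on either strand, stood in a window of 10 of the 53 genes (18.9%), beside 21.5% of the listed genes, and overlapped none of the NRF2 element matches in these windows. Such matches describe letters in these windows, not bound sites.

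The labelled tissue and the other cells it can hold were checked with marker lists. The brown fat markers Ucp1, Cidea, Dio2, Cox7a1 and Ppargc1a summed to 129.4 and 97.3 RPKM in Ebf2 KO and to 7867 and 9057 RPKM in WT, and all 5 fell under both scalings. The fat cell markers Adipoq, Plin1, Fabp4, Cfd and Cidec summed to 38857 and 32523 RPKM in Ebf2 KO and to 19743 and 14127 RPKM in WT. Of these 5, 3 rose on RPKM and 1 after scaling, where the log2 changes ran from -0.57 to 2.53. The sums of 10 skeletal muscle markers were 9586 and 10470 RPKM in Ebf2 KO and 1021 and 2628 RPKM in WT, with 6 of 10 higher under both scalings. Those of 7 fibroblast and precursor markers were 1045 and 2067 RPKM in Ebf2 KO and 197 and 430 RPKM in WT, with 5 of 7 higher under both. Of 6 macrophage markers measured 4 rose under both scalings, with sums of 84.0 and 79.7 RPKM in Ebf2 KO and 17.0 and 46.0 RPKM in WT. The 2 liver markers measured, Alb and Apoa1, summed to 3.22 and 5.48 RPKM in Ebf2 KO and to 0.424 and 0.364 RPKM in WT, whereas endothelial, erythroid and lymphocyte markers gave no call in either direction. Of 5 neutrophil markers Camp rose under both scalings, and of 4 Schwann cell markers 3 rose and 1, S100b, fell on RPKM, with 1 in each direction after scaling and sums of 70.0 and 172.5 RPKM in Ebf2 KO and of 27.1 and 61.6 RPKM in WT. The part of these cells in the results below was not tested, and in whole tissue fewer cells of a type and less RNA per cell cannot be told apart.

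Among the superoxide dismutases the mitochondrial enzyme fell and the cytosolic one did not. Sod2, the manganese enzyme of the mitochondrial matrix, was at 37.3 and 30.5 RPKM in the Ebf2 KO libraries and at 141.8 and 118.3 RPKM in the WT libraries. The groups lay far apart: the mean was 3.84-fold lower on RPKM and 5.97-fold lower after scaling (log2 change -1.91, SE 0.213, limma adjusted p = 0.00275; -2.53, SE 0.322, adjusted p = 0.00571 after scaling). Its call held with any of the 4 libraries left out under either scaling, at an adjusted p of 0.0225 or less. Sod1, the copper and zinc enzyme of the cytosol, was at 1605 and 1118 RPKM in Ebf2 KO and at 633 and 607 RPKM in WT. It rose on RPKM (log2 change 1.11, SE 0.299, adjusted p = 0.0325), but not after scaling (0.48, SE 0.489, adjusted p = 0.544), where the groups overlapped, and 23.1% of its transcript windows of 50 bases also occur in the annotated gene Gm8566. Sod3, the extracellular enzyme, was at 97.2 and 83.9 RPKM in Ebf2 KO and at 64.6 and 93.9 RPKM in WT, with overlapping groups and no call. After scaling both Ebf2 KO libraries lay below both WT libraries, with a 1.32-fold lower mean that did not pass.

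Ratios of genes within a library do not depend on how libraries are scaled. Sod2 ran at 0.0232 and 0.0272 times the RPKM of Sod1 in the Ebf2 KO libraries and at 0.224 and 0.195 times in the WT libraries, so its ratio was 8.31-fold lower in Ebf2 KO. As a share of the summed RPKM of the 3 dismutases, Sod2 made up 2.31% ± 0.233 in Ebf2 KO and 15.7% ± 1.74 in WT (SD, n = 2 each). Sod1 made up 91.5% ± 1.09 in Ebf2 KO and 74.7% ± 0.924 in WT. With 2 libraries per genotype an exact permutation test of a single ratio cannot go below p = 0.333, so these ratios are given without a test. The pairs were chosen after their values were seen.

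The mitochondrial thioredoxin chain fell together with Sod2. Prdx3, the peroxiredoxin of the mitochondrial matrix, was at 62.9 and 55.1 RPKM in Ebf2 KO and at 107.8 and 100.2 RPKM in WT. Txn2, the mitochondrial thioredoxin that recharges it, was at 116.4 and 84.7 RPKM in Ebf2 KO and at 169.0 and 166.9 RPKM in WT. Txnrd2, the mitochondrial reductase, was at 10.8 and 9.68 RPKM in Ebf2 KO and at 16.7 and 19.1 RPKM in WT. In each of the 3 both Ebf2 KO values lay below both WT values. The means were 1.76-fold, 1.67-fold and 1.75-fold lower in the order Prdx3, Txn2, Txnrd2 (limma adjusted p = 0.0251, 0.0453 and 0.0367), and 2.73-fold, 2.56-fold and 2.68-fold lower after scaling (adjusted p = 0.0229, 0.0389 and 0.0125). These calls rested on few libraries. On RPKM all 3 were lost without Ebf2 KO replicate 1 (adjusted p = 0.0609, 0.0582 and 0.0858, same order) and without Ebf2 KO replicate 2 (0.194, 0.373 and 0.218), and Txnrd2 also without WT replicate 2 (0.0559). After scaling Prdx3 and Txn2 were lost without Ebf2 KO replicate 1 (0.0501 and 0.0614) and without WT replicate 1 (0.0561 and 0.0934), and all 3 without Ebf2 KO replicate 2 (0.212, 0.382 and 0.0873). The direction was the same in each of these fits.

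The counterparts outside mitochondria were not called lower. Txn1, the cytosolic thioredoxin, was at 229.8 and 242.4 RPKM in Ebf2 KO and at 130.7 and 104.9 RPKM in WT. It rose on RPKM (log2 change 1.01, SE 0.218, limma adjusted p = 0.0178) and did not pass after scaling (adjusted p = 0.498). Txnrd1, the cytosolic reductase, was at 7.67 and 6.84 RPKM in Ebf2 KO and at 6.52 and 8.01 RPKM in WT, with no call. After scaling both Ebf2 KO libraries of Txnrd1 lay below both WT libraries, with a 1.53-fold lower mean that did not pass. For Txn1 the scaled groups overlapped. Within a library Txn2 stood at 0.506 and 0.350 times Txn1 in Ebf2 KO, against 1.29 and 1.59 times in WT, a 3.37-fold lower ratio. Txnrd2 stood at 1.41 and 1.41 times Txnrd1 in Ebf2 KO, against 2.56 and 2.39 times in WT, 1.75-fold lower. The ratio of Prdx3 to Prdx1, a cytosolic peroxiredoxin, was 0.226 and 0.220 in Ebf2 KO and 0.543 and 0.459 in WT, 2.24-fold lower. In none of these ratios did the groups overlap. Txnip, which binds and inhibits thioredoxin, was at 167.6 and 227.3 RPKM in Ebf2 KO and at 129.6 and 115.0 RPKM in WT, without a call, and Txnrd3 gave none either.

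**Figure D2:**
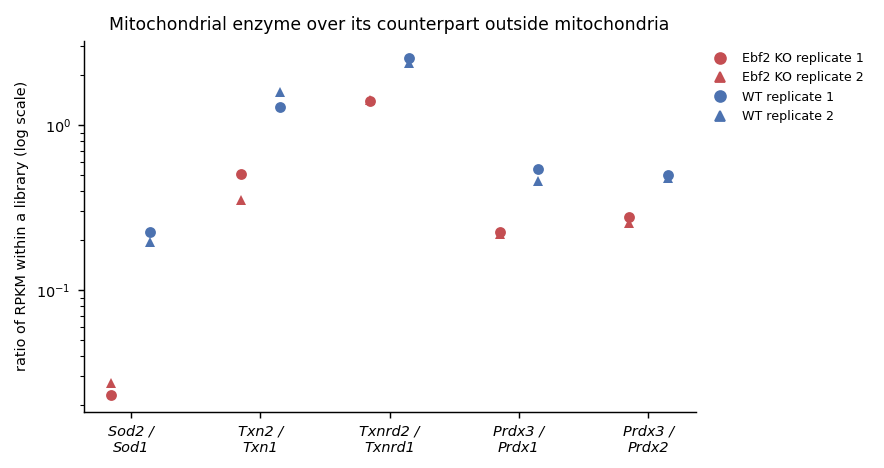
RPKM of a mitochondrial enzyme divided by that of its counterpart outside mitochondria in the same library (log axis), with Ebf2 KO in red and WT in blue, circles for replicate 1 and triangles for replicate 2. The ratio of Sod2 to Sod1 shows the widest gap, with 0.0232 and 0.0272 in Ebf2 KO and 0.224 and 0.195 in WT.

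The other peroxiredoxins, which reduce peroxides in the cytosol, the endoplasmic reticulum and several other places, gave no call. Prdx5, found in mitochondria, peroxisomes and cytosol and the most abundant of the family, was at 409.8 and 505.2 RPKM in Ebf2 KO and at 541.5 and 455.8 RPKM in WT. Prdx1 was at 278.3 and 249.97 RPKM in Ebf2 KO and at 198.7 and 218.2 RPKM in WT. Prdx2, Prdx4 and Prdx6 had means of 220.4, 57.6 and 92.6 RPKM in Ebf2 KO and of 212.7, 32.0 and 74.2 RPKM in WT. The summed RPKM of the 6 peroxiredoxins was 1123 and 1179 in Ebf2 KO and 1171 and 1089 in WT, with overlapping groups. After scaling the sums were 977 and 877 in Ebf2 KO and 1627 and 1212 in WT, a 1.53-fold lower mean that was not tested. The share of Prdx3 was 5.13% ± 0.656 in Ebf2 KO and 9.20% ± 0.00612 in WT (SD, n = 2 each). Srxn1, the sulfiredoxin that repairs overoxidised peroxiredoxins, was at 5.30 and 3.89 RPKM in Ebf2 KO and at 6.38 and 8.56 RPKM in WT. It did not pass on RPKM (limma adjusted p = 0.117) but fell after scaling (log2 change -1.13, SE 0.234, adjusted p = 0.0219). That call was lost after scaling without Ebf2 KO replicate 2 (0.159) and without WT replicate 1 (0.0503). Of the 4 glutaredoxins, small enzymes that use glutathione to reduce disulfides, none passed under either scaling. The most abundant was Glrx5, a mitochondrial protein of iron-sulfur cluster assembly, at 193.7 and 178.1 RPKM in Ebf2 KO and at 199.1 and 141.7 RPKM in WT. Next came Glrx3, at 78.4 and 76.2 RPKM in Ebf2 KO and at 63.1 and 56.0 RPKM in WT.

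The enzymes that make and recycle glutathione moved in different directions. Gss, glutathione synthetase, which adds glycine in the last step, was at 5.43 and 5.74 RPKM in Ebf2 KO and at 8.82 and 11.7 RPKM in WT. It fell 1.84-fold on RPKM (limma adjusted p = 0.0494) and 2.81-fold after scaling (log2 change -1.31, SE 0.195, adjusted p = 0.00896). On RPKM its call was lost without Ebf2 KO replicate 1 (0.156), Ebf2 KO replicate 2 (0.194) or WT replicate 2 (0.129), and with a pseudocount of 0.1, whereas after scaling it held without any of the 4 libraries. Its locus overlaps Acss2 on the opposite strand, at 9.48 and 8.36 RPKM in Ebf2 KO and at 5.56 and 4.30 RPKM in WT. Gclc and Gclm, the catalytic and modifier subunits of the first and rate-limiting enzyme, gave no call: Gclc was at 2.86 and 2.76 RPKM in Ebf2 KO and at 2.63 and 2.51 RPKM in WT, and Gclm at 6.99 and 9.81 RPKM in Ebf2 KO and at 4.74 and 7.35 RPKM in WT. Gsr, glutathione reductase, was at 14.8 and 13.6 RPKM in Ebf2 KO and at 5.99 and 5.86 RPKM in WT. It rose 2.39-fold on RPKM (adjusted p = 0.0121), and its 1.54-fold difference after scaling did not pass (adjusted p = 0.137), although the groups stayed apart.

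No glutathione peroxidase passed under both scalings. Gpx1, the cytosolic and mitochondrial peroxidase, and the endoplasmic reticulum proteins Gpx7 and Gpx8 rose 1.69-fold, 2.51-fold and 2.60-fold on RPKM (limma adjusted p = 0.0400, 0.0248 and 0.0192), and none of these passed after scaling (0.840, 0.128 and 0.246). Gpx4, which reduces lipid peroxides in membranes, was at 325.2 and 295.9 RPKM in Ebf2 KO and at 395.5 and 311.3 RPKM in WT, and 61.7% of its 50-base windows also occur in the pseudogene Gpx4-ps2. Gpx3, the secreted enzyme of plasma, varied more between replicates than between genotypes, with 538.3 and 80.5 RPKM in Ebf2 KO and 473.6 and 154.9 RPKM in WT. In both genotypes replicate 1 was the higher library.

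The glutathione transferases held the largest increases. Gstz1, a zeta class enzyme that isomerises maleylacetoacetate in tyrosine breakdown, was at 331.1 and 243.2 RPKM in Ebf2 KO and at 40.6 and 33.0 RPKM in WT. It rose 7.80-fold on RPKM and 5.03-fold after scaling (log2 change 2.92, SE 0.237, limma adjusted p = 0.000947; 2.30, SE 0.361, adjusted p = 0.0106 after scaling). Its call held without any of the 4 libraries, at an adjusted p of 0.0186 or less. Gstz1 overlaps Pomt2 on the opposite strand, and Pomt2 did not exceed 2.27 RPKM in any library.

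Gsta3 and Gsta4 belong to 1 class, the alpha transferases, and moved in opposite directions. Gsta3 was at 10.8 and 2.56 RPKM in Ebf2 KO, from at least 3071 and 671 reads, and at 0.333 and 0.158 RPKM in WT, from at least 107 and 45 reads. Its mean was 27.2-fold higher on RPKM and 17.7-fold higher after scaling, with Ebf2 KO libraries that differed widely from each other (log2 change on the log2(value + 1) scale 2.38, SE 0.500, limma adjusted p = 0.0163; 2.07, SE 0.516, adjusted p = 0.0377 after scaling). The call was lost after scaling without WT replicate 1 (0.0832) or WT replicate 2 (0.0784) and with quantile normalization (0.0652). Gsta4, which has high activity towards the lipid peroxidation product 4-hydroxynonenal, was at 8.45 and 4.48 RPKM in Ebf2 KO and at 22.0 and 19.8 RPKM in WT. It fell 3.23-fold on RPKM and 4.93-fold after scaling (log2 change -1.60, SE 0.291, adjusted p = 0.0107; -2.17, SE 0.340, adjusted p = 0.0106 after scaling), and its call held without any of the 4 libraries, at an adjusted p of 0.0346 or less. Within a library Gsta4 stood at 0.783 and 1.75 times Gsta3 in Ebf2 KO, against 66.2 and 125.1 times in WT.

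Of the mu class, Gstm1 was at 236.7 and 125.3 RPKM in Ebf2 KO and at 26.99 and 29.1 RPKM in WT. Gstm2 was at 79.5 and 90.9 RPKM in Ebf2 KO and at 22.6 and 23.6 RPKM in WT. Gstm1 rose 6.45-fold and Gstm2 3.69-fold on RPKM (limma adjusted p = 0.00298 and 0.00241), and 4.27-fold and 2.37-fold after scaling (0.0202 and 0.0200). After scaling Gstm1 was lost without Ebf2 KO replicate 1 (0.0532), and Gstm2 without Ebf2 KO replicate 1 (0.0798) or replicate 2 (0.112). Their relatives Gstm5 and Gstm7 rose on RPKM only, 1.91-fold (adjusted p = 0.0175) and 4.34-fold (0.0198), with 0.437 and 0.0579 after scaling, and Gstm4 gave no call. Mu transferases share sequence, with 23.1% of the 50-base windows of Gstm1 and 9.36% of those of Gstm2 found in transcripts of other genes, so reads may be split among them. Gstt1, a theta class enzyme, was at 14.3 and 29.4 RPKM in Ebf2 KO and at 3.72 and 5.45 RPKM in WT. It rose 4.77-fold on RPKM and 3.05-fold after scaling (adjusted p = 0.0102 and 0.0206), a call that was lost after scaling without Ebf2 KO replicate 2 (0.0926) or WT replicate 1 (0.0666).

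The remaining transferases did not pass after scaling. Gstp1, the pi class enzyme, was at 105.1 and 82.0 RPKM in Ebf2 KO and at 57.6 and 46.7 RPKM in WT, and Gstk1, the kappa class enzyme of mitochondria and peroxisomes, at 35.1 and 32.4 RPKM in Ebf2 KO and at 22.6 and 16.9 RPKM in WT. Both rose on RPKM (limma adjusted p = 0.0327 and 0.0394), with 0.712 and 0.766 after scaling, and 62.3% of the windows of Gstp1 are shared with other genes. Gsto1, an omega class enzyme and the most abundant soluble transferase in WT, was at 89.8 and 80.8 RPKM in Ebf2 KO and at 85.8 and 68.7 RPKM in WT. The make-up of the family changed with these genes. Of the summed RPKM of the 16 soluble transferases, Gstz1 made up 33.0% ± 0.808 in Ebf2 KO and 11.97% ± 0.506 in WT, and Gsto1 9.93% ± 1.18 in Ebf2 KO and 25.1% ± 1.32 in WT (SD, n = 2 each). The share of Gsta4 was 0.727% ± 0.184 in Ebf2 KO and 6.83% ± 0.204 in WT. The sum itself was 986.9 and 750.3 RPKM in Ebf2 KO and 329.3 and 283.9 RPKM in WT, 2.83-fold higher, and 1.83-fold higher after scaling.

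**Figure D3:**
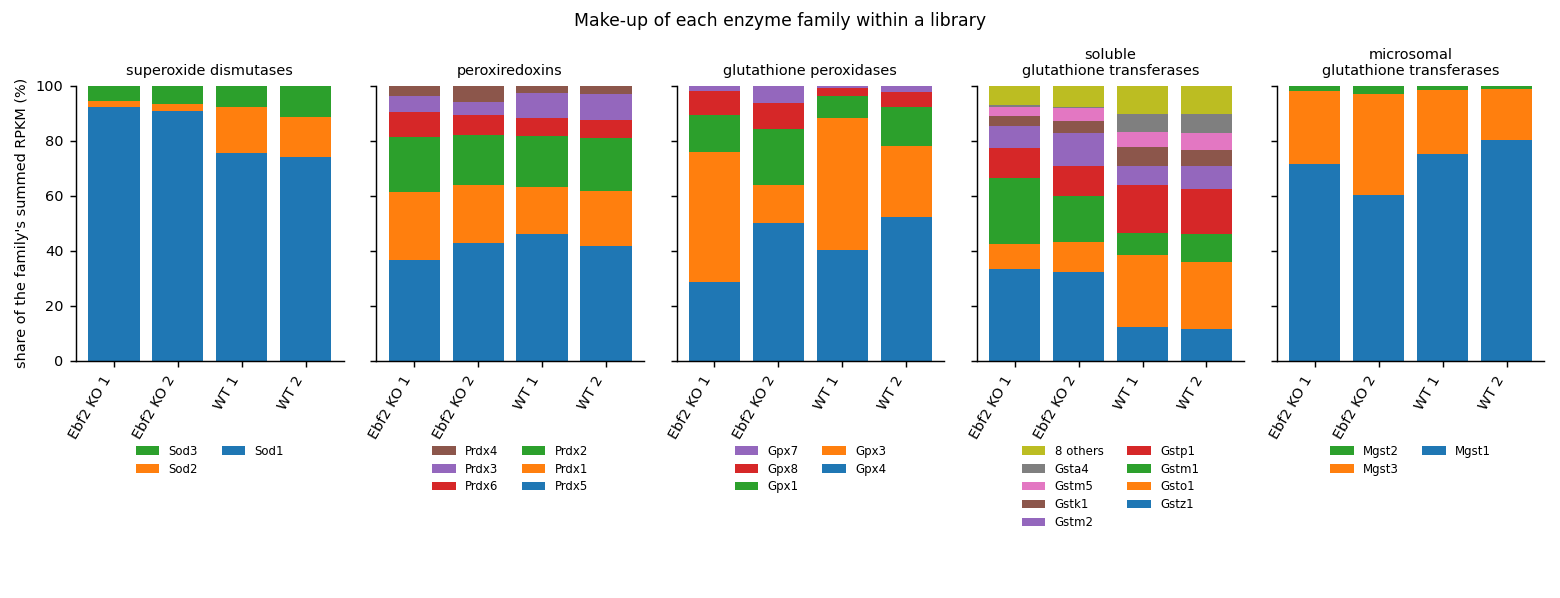
Share of each gene in the summed RPKM of its family within each of the 4 libraries, Ebf2 KO on the left and WT on the right of each panel. The Sod2 share is narrow in Ebf2 KO (2.31% on average) and wide in WT (15.7%), and Gstz1 takes 33.0% of the soluble transferases in Ebf2 KO and 11.97% in WT.

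The microsomal transferases, membrane enzymes that include peroxidases of lipid hydroperoxides, were higher in Ebf2 KO in all 3 genes on RPKM. Mgst2 was at 32.4 and 38.5 RPKM in Ebf2 KO and at 6.74 and 4.37 RPKM in WT. Mgst3 was at 466.3 and 488.6 RPKM in Ebf2 KO and at 108.7 and 66.8 RPKM in WT. Mgst1, the most abundant, was at 1265 and 802 RPKM in Ebf2 KO and at 347 and 288 RPKM in WT. In none of the 3 did the groups overlap. Mgst2 rose 6.39-fold, Mgst3 5.44-fold and Mgst1 3.26-fold (limma adjusted p = 0.00194, 0.00271 and 0.0107), and after scaling Mgst2 and Mgst3 still passed, at 3.99-fold and 3.41-fold (0.0103 and 0.0270), whereas Mgst1 did not, at 2.12-fold (0.184). Mgst1 passed in the authors' deposited table (FDR 0.0382). After scaling the call of Mgst3 was lost without Ebf2 KO replicate 1 (0.0767) or replicate 2 (0.0935), and that of Mgst2 held without any library.

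**Figure D4:**
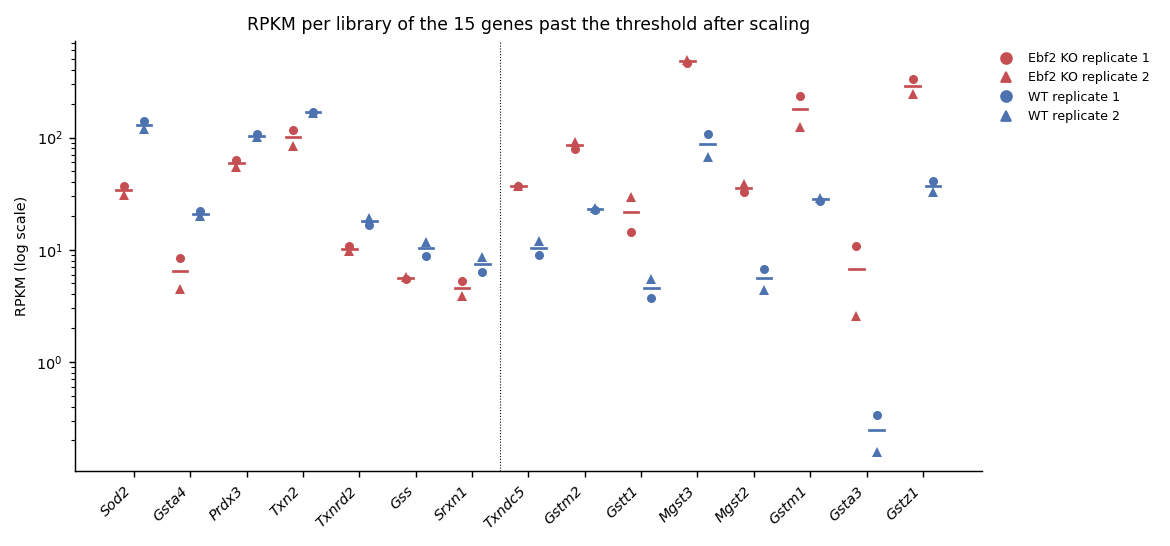
RPKM in each library (log axis) of the 15 genes that passed an adjusted p under 0.05 after median-ratio scaling, with those that fell left of the dotted line and those that rose right of it; Ebf2 KO (red) stands left of WT (blue), and bars are means of 2 libraries. Both Ebf2 KO values lie on one side of both WT values in each gene, and the Ebf2 KO libraries differ most from each other in Gsta3 (10.8 and 2.56 RPKM).

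Of the 10 thioredoxin-like and thioredoxin-domain genes, many of which act in protein folding and not in peroxide removal, 4 rose on RPKM and 1 after scaling. These shares were 40% and 10%, beside 24.4% and 8.29% of all genes. Txndc5, a disulfide isomerase of the endoplasmic reticulum, was at 36.6 and 37.1 RPKM in Ebf2 KO and at 8.93 and 11.9 RPKM in WT. It rose 3.54-fold on RPKM and 2.32-fold after scaling (limma adjusted p = 0.00357 and 0.0173), and after scaling the call was lost without Ebf2 KO replicate 1 (0.0781) or replicate 2 (0.0645). It overlaps Bmp6 on the opposite strand, which did not exceed 3.63 RPKM in any library. Txndc17, the most abundant of these genes, was at 66.9 and 79.1 RPKM in Ebf2 KO and at 41.5 and 31.6 RPKM in WT, followed by Txndc15 at 35.0 and 38.6 RPKM in Ebf2 KO and at 13.4 and 14.3 RPKM in WT. Txndc15, Txndc16 and Txndc17 rose 2.66-fold, 2.94-fold and 1.997-fold on RPKM (0.00583, 0.0389 and 0.0195) and did not pass after scaling (0.0625, 0.0913 and 0.453).

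The NRF2 axis itself gave no call with limma on all 4 libraries. Nfe2l2 was at 3.85 and 9.61 RPKM in Ebf2 KO and at 8.06 and 8.93 RPKM in WT, so on RPKM the Ebf2 KO libraries lay on either side of WT (limma adjusted p = 0.399). After scaling both Ebf2 KO libraries lay below both WT libraries, with a 2.02-fold lower mean that did not pass (log2 change -0.96, SE 0.308, adjusted p = 0.0772) but passed without Ebf2 KO replicate 2 (0.0247). In the authors' deposited table it was lower in Ebf2 KO (log2 fold change -1.02, FDR 0.0265). Keap1 was at 6.26 and 5.55 RPKM in Ebf2 KO and at 2.91 and 5.25 RPKM in WT. Nqo1, a quinone reductase widely used as an NRF2 readout, was at 0.890 and 0.993 RPKM in Ebf2 KO and at 0.332 and 0.515 RPKM in WT. The mean of Nqo1 was 2.22-fold higher on RPKM and 1.46-fold higher after scaling. Its groups did not overlap under either scaling, but it did not pass. Of 22 other genes known as NRF2 targets in other tissues, 11 rose (50%) and 1 fell (4.55%) on RPKM, beside 24.4% and 3.54% of all genes. After scaling 2 rose (9.09%) and 1 fell (4.55%), near the 8.29% and 7.39% of all genes. Those that rose under both were Me1, malic enzyme, at 27.2 and 26.2 RPKM in Ebf2 KO and at 7.12 and 6.81 RPKM in WT, and Ugdh, which makes UDP-glucuronate, at 16.1 and 24.6 RPKM in Ebf2 KO and at 4.31 and 5.30 RPKM in WT (limma adjusted p = 0.0177 and 0.0127 after scaling). The gene that fell was Hmox1, heme oxygenase, named after its values were seen, at 22.8 and 22.2 RPKM in Ebf2 KO and at 67.2 and 36.0 RPKM in WT. Of 8 partners and regulators of NRF2 measured, 1 rose on RPKM and 0 passed after scaling: the repressor gene Bach1 was at 2.30 and 2.51 RPKM in Ebf2 KO and at 0.869 and 1.08 RPKM in WT (limma adjusted p = 0.0375, and 0.123 after scaling).

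The genes that supply the other ingredients were mixed as well. Of 11 genes of NADPH supply, 6 rose (54.5%) and 2 fell (18.2%) on RPKM, beside 24.4% and 3.54% of all genes. After scaling 3 rose (27.3%) and 3 fell (27.3%), beside 8.29% and 7.39% of all genes. Among them Nnt rose under both scalings and Mthfd2 fell after scaling only, with values given under other observations. Aldh1l1, a cytosolic folate enzyme that yields NADPH, was at 15.9 and 15.1 RPKM in Ebf2 KO and at 2.80 and 2.89 RPKM in WT and rose with Me1 under both scalings (limma adjusted p = 0.00679 after scaling). Pgd and G6pdx of the pentose phosphate pathway rose 2.74-fold and 2.25-fold on RPKM only. Idh2 and Me3, named after their values were seen, fell under both scalings. Idh2 was at 72.2 and 95.0 RPKM in Ebf2 KO and at 124.6 and 184.6 RPKM in WT. Me3 was at 0.509 and 0.734 RPKM in Ebf2 KO and at 1.39 and 2.97 RPKM in WT. On RPKM both calls were lost without Ebf2 KO replicate 1 or replicate 2, and that of Me3 also without WT replicate 2. After scaling that of Idh2 was lost without either Ebf2 KO replicate. Of 16 other genes of glutathione turnover and cystine supply, 3 rose (18.75%) and 2 fell (12.5%) on RPKM. After scaling 0 rose and 3 fell (18.75%), with the shares of all genes as above. Slc3a2, the heavy chain of the cystine and other amino acid transporters, was at 37.7 and 34.1 RPKM in Ebf2 KO and at 92.2 and 109.1 RPKM in WT, and Oplah, which opens 5-oxoproline in the glutathione cycle, at 10.1 and 6.44 RPKM in Ebf2 KO and at 27.2 and 43.1 RPKM in WT. Both fell under both scalings (adjusted p = 0.00581 and 0.00452 after scaling). Ggt5, with an FDR of 0.0346 in the authors' deposited table, and Glo1 rose with limma on RPKM only. Their folds were 3.04 and 1.89 (limma adjusted p = 0.0259 and 0.0175). Both calls were lost without Ebf2 KO replicate 2, and that of Ggt5 also without Ebf2 KO replicate 1 or WT replicate 1. Slc7a11, of the same list, was at 0.379 and 1.84 RPKM in Ebf2 KO and at 0.301 and 0.705 RPKM in WT, with no call.

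Of 17 other peroxide, superoxide and repair genes, 7 rose and 1 fell on RPKM, and 1 rose and 4 fell after scaling. For this and the next lists, the shares of all genes were 24.4% higher and 3.54% lower on RPKM. After scaling they were 8.29% and 7.39%. Sesn1, a sestrin, was at 6.52 and 8.55 RPKM in Ebf2 KO and at 1.18 and 1.97 RPKM in WT and rose under both (limma adjusted p = 0.0103 after scaling). The methionine sulfoxide reductase Msrb1 and the selenoprotein Sepw1 rose 2.61-fold and 2.37-fold on RPKM only. Of 9 genes of selenium supply and selenoprotein synthesis, which serve the glutathione peroxidases and thioredoxin reductases, 3 rose and 1 fell on RPKM, and 1 and 1 after scaling. Sephs2, which makes selenophosphate, was at 15.8 and 10.5 RPKM in Ebf2 KO and at 43.8 and 26.99 RPKM in WT (adjusted p = 0.0197 after scaling), and Secisbp2l was at 4.91 and 7.20 RPKM in Ebf2 KO and at 1.73 and 2.21 RPKM in WT (0.0399). Sepp1, the selenium carrier of plasma, was at 206.7 and 228.9 RPKM in Ebf2 KO and at 68.4 and 78.1 RPKM in WT. With limma it rose on RPKM only (adjusted p = 0.00428, and 0.0677 after scaling), and its FDR in the authors' deposited table was 0.0324. Of 6 genes that produce superoxide, 3 rose on RPKM and 2 after scaling. They were Xdh, xanthine oxidoreductase, at 8.84 and 10.1 RPKM in Ebf2 KO and at 1.55 and 1.72 RPKM in WT, and Cyba, a subunit of the NADPH oxidases, at 57.7 and 66.5 RPKM in Ebf2 KO and at 17.6 and 25.5 RPKM in WT (adjusted p = 0.00499 and 0.0447 after scaling). Of the genes named from these lists, Slc3a2, Oplah, Aldh1l1, Me3, Sesn1 and Xdh passed after scaling without any of the 4 libraries. Me1 was lost without Ebf2 KO replicate 1 (0.0613), Ugdh without Ebf2 KO replicate 2 (0.0693), and Sephs2 without Ebf2 KO replicate 2 (0.0676, and 0.0734 on RPKM) or WT replicate 1 (0.0503). Cyba was lost without Ebf2 KO replicate 1 (0.197), Ebf2 KO replicate 2 (0.250) or WT replicate 1 (0.103), and Secisbp2l without any one of the 4, at 0.0539 to 0.276, and on RPKM without Ebf2 KO replicate 2 (0.155). Hmox1 was lost without Ebf2 KO replicate 2 (0.0931 on RPKM and 0.0964 after scaling) and, on RPKM, without WT replicate 1 (0.0546). On RPKM Sepw1 was lost without Ebf2 KO replicate 2 (0.0752), and Bach1 without Ebf2 KO replicate 1 (0.101), Ebf2 KO replicate 2 (0.223) or WT replicate 1 (0.114).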

How the data were processed

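Polyadenylated RNA of brown adipose tissue was sequenced in 2 Ebf2 KO and 2 WT libraries prepared by Illumina TruSeq per the labels' protocols. Per the submitters' processing notes, the authors used STAR, edgeR and mm9. Their versions, counting tool, annotation and strand setting are not stated there. The authors deposited RPKM per library and per genotype mean, and their log2 fold change, average log2 CPM, p-value and FDR, per the file headers. Library totals were recovered from RPKM of microRNA genes of known length, and whole reads from all 12165 genes (tolerance 1e-06 reads, smallest length that fits), for limma-voom and the reads given for Gsta3; at these totals 1 read in 1 kb is 0.00501 to 0.00614 RPKM. Here log2(RPKM + 1) was fitted with limma 3.58.1 (R 4.3.3, trended variance) on genotype alone, with Benjamini-Hochberg adjustment over all genes; the residual degrees of freedom were 2 and those of the prior 5.61. It was tested on simulated data. Genes and lists were chosen with earlier results of these data known. Statistics are given for members past the threshold under either scaling, for up to 4 members of each other list with the smallest p, and otherwise values only. Shared 50-base windows and overlaps come from GENCODE M21, another build than mm9. Alternatives were median-ratio scaling, quantile normalization, a pseudocount of 0.1, a minimum mean of 1 RPKM, a replicate block, leaving out each library, the authors' deposited FDR and limma-voom (8 members higher and 7 lower); scaling combined with a left-out library or the block was added after seeing the data.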

Additional observations from a re-analysis of the deposited data

How the results depend on the processing

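Of the 61 genes, 22 rose and 6 fell on RPKM. The number higher was 8 with median-ratio scaling, 10 with quantile normalization, 11 in the authors' deposited table and 8 with limma-voom, and the number lower stayed between 5 and 9 in these and with a pseudocount of 0.1 or a minimum mean of 1 RPKM. With single libraries left out it ran from 12 to 27 higher and from 2 to 6 lower on RPKM, and from 4 to 7 higher and 4 to 8 lower after scaling. Over all 12165 genes, 2971 were higher and 431 lower on RPKM; the counts were 1008 and 899 with median-ratio scaling, 1048 and 1010 with quantile normalization, 1325 and 1277 in the deposited table and 1049 and 1005 with limma-voom. With single libraries left out they ran from 810 to 4477 and from 166 to 561 on RPKM, and after scaling they were 797 and 626 without Ebf2 KO replicate 1, 448 and 292 without Ebf2 KO replicate 2, 487 and 690 without WT replicate 1, and 1293 and 1156 without WT replicate 2. Both genotypes have replicates 1 and 2, but the labels do not say that a number pairs samples; same-numbered libraries deviated together (r = 0.389 across 10365 genes, with 2 pairs). With the replicate block 31 members were higher and 7 lower on RPKM (6325 and 746 of all genes), and 14 and 11 with scaling added (2037 and 1688 of all genes). The 14 genes called under both scalings kept their direction in every fit run. After scaling Gpx1 turned to -0.16 without Ebf2 KO replicate 1 and to -0.014 without WT replicate 2, Gstk1 to -0.0066 and -0.20, and Gstp1 to -0.074 and -0.097 in the same fits. Gsta3, called under both scalings, rested on at least 45 reads in each library, and the 2 libraries per genotype limit the precision of every value. The reads recovered for the listed genes made up at least 58.0% and 60.6% of the library totals in Ebf2 KO. In WT they made up at least 42.5% and 44.7%. The cause of the shift between RPKM and scaled values was not tested.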

Other observations

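Some genes around glutathione differed between libraries of 1 genotype. Chac1, which degrades glutathione, was at 0.545 and 1.38 RPKM in the Ebf2 KO libraries and at 2.53 and 29.7 RPKM in the WT libraries, so WT replicate 2 stood far above the rest. Mthfd2, a mitochondrial folate enzyme, and Sesn2, a sestrin, were likewise highest in WT replicate 2. Mthfd2 was at 0.892 and 1.12 RPKM in Ebf2 KO and at 2.29 and 10.7 RPKM in WT. Sesn2 was at 1.20 and 0.851 RPKM in Ebf2 KO and at 1.98 and 7.99 RPKM in WT. With limma, Mthfd2 and Sesn2 fell in Ebf2 KO after scaling only, and Chac1 gave no call. Chac1, Mthfd2 and Sesn2 were each lower in the authors' deposited table (FDR 5.8e-07, 1.6e-07 and 3.2e-06). Replicate 1 was the higher library of each genotype in Gpx3, as given above, and also in Gstt2, a theta class transferase, at 27.4 and 9.17 RPKM in Ebf2 KO and at 19.7 and 13.4 RPKM in WT. The neutrophil markers S100a8, S100a9, Ngp, Camp and Retnlg summed to 276.4 and 66.5 RPKM in Ebf2 KO and to 49.1 and 17.99 RPKM in WT, with replicate 1 the higher in both genotypes. Nnt, the mitochondrial transhydrogenase that makes NADPH, was at 5.94 and 13.4 RPKM in Ebf2 KO and at 1.26 and 2.48 RPKM in WT. Nnt also differed between the genotypes: it rose in Ebf2 KO under both scalings with limma, and the groups did not overlap. The strains behind the mixed background are not named in the labels. These genes were chosen after their values were seen.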
